A study of Mus musculus with 3 samples.

Results

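The genes described here are 48 mouse genes that build and control the mitotic spindle, the kinetochores and the condensed chromosomes. They are a fixed list of names, drawn up with earlier results of these data known, and all 48 were found among the 18478 gene rows of the count table. By role they comprised 6 genes of the kinase CDK1, its cyclins and their partners, 2 partners of the anaphase-promoting complex, 2 centrosomal and polo kinases and 4 subunits of the chromosomal passenger complex. The others were 4 genes of the spindle assembly checkpoint, 9 of the kinetochore and centromere, 7 kinesin motors, 5 of spindle assembly and midzone, 7 of condensin and chromosome structure, and 2 of the nuclear lamina and transcription. The list holds kinases, motors, scaffolds and structural proteins, which act at different steps of cell division.

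The cells came from adult mouse retina. The mice carried Glast-CreERT2+/tg, Yap5SA+/tg and R26R-tdTomato+/tg, where the genotype field of the labels writes Glast-CreERT+/tg and ROSA26R-tdTomato+/tg, and all received tamoxifen. Tamoxifen activates CreERT2 in cells that use the Glast promoter, which in the retina are Müller glia and astrocytes, and so switches on the red reporter tdTomato and Yap5SA, a form of the co-activator YAP that the Hippo kinases cannot switch off. The injury was NMDA, a glutamate receptor agonist toxic to neurons of the retina. Sorting for tdTomato came 2 days after it, and single-cell libraries were made on the 10X Chromium 3' platform. The 3 samples are runs of this single group, with no retina lacking Yap5SA or injury among them, so each comparison sets classes of cells within a run against each other. The labels do not say that the runs are separate animals, so p-values measure only the spread between these runs, which may be technical.

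Müller glia are the radial glia of the retina and rarely divide in the adult mouse. In a cell that enters the cycle, cyclin A and cyclin B switch on CDK1 late in interphase, condensin and topoisomerase II fold the replicated chromosomes, and Aurora and polo kinases build the spindle. Kinetochores then tie chromosomes to microtubules under the watch of the checkpoint, until CDC20 and the anaphase-promoting complex destroy cyclin B and separate the sisters. Most of these genes are transcribed late in the cycle, and many are repressed outside it by the DREAM complex, which binds a promoter element called the cell cycle genes homology region, while the factor NF-Y binds CCAAT boxes nearby.

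The run totals were 94858762, 122888236 and 97032672 unique molecular identifiers (UMIs), each standing for 1 captured transcript, over 24695 cells. The median cell held 9407 to 11200.5 UMIs and 24672 cells were kept. Cells with at least 5 Igfbp2 UMIs per 10000 UMIs are called Igfbp2-high (6518 cells) and those under 1 are called Igfbp2-low (14999 cells). Igfbp2 encodes a binding protein of insulin-like growth factors. S cells held at least 2 UMIs of the replication genes Mcm5, Mcm6, Ung and Hells together (5484 cells), and S-zero cells held 0 (16947 cells). Microglia, the immune cells of the retina, were taken as cells with at least 10 UMIs of C1qa, C1qb and C1qc per 10000 (62 cells). Counts were summed over the cells of a class in each run and are given per 1000000 UMIs of the class (CPM). Between 83 and 108 cell barcodes were shared by a pair of runs, and doublets were not removed.

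The promoters are shown because the members rose together in the comparisons below. RefSeq promoter windows of the build GRCm38.p6 matched 39 of the 48 members, in 40 windows, and the 250 bases before each start were searched on both strands for the letters TTTGAA (the core of the cell cycle genes homology region) and CCAAT. The homology region core was found in 16 of the 40 member windows (40%), and in 16.0% of all 32851 windows of that length. The CCAAT box was found in 31 (77.5%), against 33.8% of all windows. Both were present in 15 (37.5%), against 5.55% of all. No member window had a base that belonged to both motifs read on the same strand. Shared bases of motifs on opposite strands were not looked for. A match of letters is not a measured site. The 120 bases before the start of 4 members that hold both motifs follow, 5′ to 3′ on the strand of the gene, with both motifs in capitals, read on either strand. They lie at chr11:99024190-99024309 (Top2a, minus strand), chr10:69352913-69353032 (Cdk1, minus strand), chr2:164769809-164769928 (Ube2c, plus strand) and chr4:118437344-118437463 (Cdc20, minus strand).
Top2a: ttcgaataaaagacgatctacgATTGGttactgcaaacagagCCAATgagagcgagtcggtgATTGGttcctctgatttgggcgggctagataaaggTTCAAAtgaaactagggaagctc
Cdk1: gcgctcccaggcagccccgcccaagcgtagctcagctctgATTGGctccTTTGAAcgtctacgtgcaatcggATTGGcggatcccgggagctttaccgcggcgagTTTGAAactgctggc
Ube2c: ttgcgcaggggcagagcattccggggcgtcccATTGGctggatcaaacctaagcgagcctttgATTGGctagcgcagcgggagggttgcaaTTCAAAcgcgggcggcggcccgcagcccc
Cdc20: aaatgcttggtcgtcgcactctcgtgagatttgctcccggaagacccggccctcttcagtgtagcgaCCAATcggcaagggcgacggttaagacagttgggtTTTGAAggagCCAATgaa
In the phase order given below, Top2a and Cdk1 reached a larger percentage of their own top level in an early bin than Ube2c and Cdc20 did. The pair of motifs was therefore present in members of both kinds.

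Every member rose in Igfbp2-high cells. Summed over the 48 genes, the level was 5769, 6938 and 7210 CPM in the Igfbp2-high cells of runs 1 to 3, and 231, 266 and 244 CPM in the Igfbp2-low cells. The classes did not overlap for any of the 48. The median log2 change was 5.10 (range 2.86 to 5.77), where the median of all 14608 genes tested was -0.04. All 48 passed edgeR's quasi-likelihood test with the run as a block and Benjamini-Hochberg adjustment over all genes (largest adjusted p 4.28e-08). In this comparison 39.9% of all genes tested rose, and 34.7% were higher with no overlap, so a rise by itself was common among all genes.

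**Figure D1:**
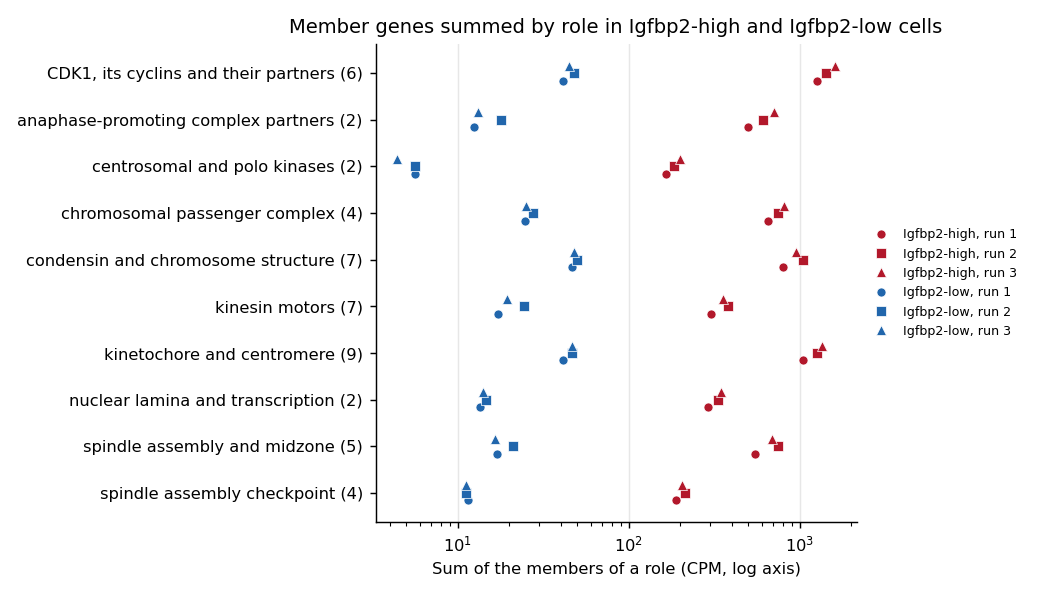
Sum of the member genes of each role (x axis, CPM on a log axis; the number of members in brackets) in each run, with Igfbp2-high cells in red and Igfbp2-low cells in blue. In all 10 roles the 3 Igfbp2-high values lie far to the right of the 3 Igfbp2-low values.

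Among the genes of mitotic entry, Cdk1, the kinase that drives it, stood at 346, 371 and 393 CPM in Igfbp2-high cells of runs 1 to 3 and at 8.98, 10.0 and 8.63 CPM in Igfbp2-low cells. Its log2 change was 5.37 ± 0.07 (SE). Cks2, a small subunit that docks on CDK1, stood at 384, 456 and 540.1 against 18.2, 22.5 and 22.3 CPM, a log2 change of 4.49 ± 0.07. Both genes were high in every Igfbp2-high run. Ccna2 (cyclin A2), Ccnb1 and Ccnb2 (B cyclins) and Cdkn3, a phosphatase of cyclin-dependent kinases, also rose, and the 6 genes of this role changed by 4.49 to 5.57.

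The 2 partners of the anaphase-promoting complex, the ubiquitin ligase that ends mitosis, rose with them. Cdc20, its activator, stood at 216, 244 and 276 CPM in Igfbp2-high and 5.19, 6.87 and 4.57 CPM in Igfbp2-low cells (log2 change 5.50 ± 0.13). Ube2c, the enzyme that starts its ubiquitin chains, stood at 284, 366 and 430.5 against 7.25, 11.1 and 8.57 CPM (5.36 ± 0.11). For both genes the lowest Igfbp2-high run was far above the highest Igfbp2-low run.

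The kinases of the spindle poles were Aurka (Aurora A) and Plk1 (polo-like kinase). Aurka stood at 79.7, 87.2 and 98.0 CPM in Igfbp2-high and 3.53, 3.20 and 2.46 CPM in Igfbp2-low cells, a log2 change of 4.89 ± 0.12. Plk1 stood at 85.9, 97.4 and 101.6 against 2.13, 2.41 and 1.98 CPM, a log2 change of 5.49 ± 0.08. In the chromosomal passenger complex, which carries Aurora B from the centromere to the midzone, Birc5 (survivin) stood at 281, 345 and 393 CPM against 8.81, 12.04 and 11.3 CPM (5.02 ± 0.07). Cdca8 (borealin) stood at 198, 210.1 and 220.5 against 6.42, 6.77 and 6.65 CPM (5.03 ± 0.06). The catalytic subunit Aurkb and the scaffold Incenp rose as well, and the 4 members changed by 3.83 to 5.31.

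The checkpoint genes held one of the larger and one of the smaller rises. Bub1, a checkpoint kinase at the kinetochore, stood at 37.7, 51.9 and 45.1 CPM in Igfbp2-high and 0.569, 1.13 and 0.938 CPM in Igfbp2-low cells (log2 change 5.70 ± 0.10). Bub1b, which encodes BubR1 of the mitotic checkpoint complex, stood at 36.3, 39.5 and 37.4 against 2.80, 2.92 and 3.38 CPM (3.68 ± 0.08). Mad2l1, which holds CDC20 back until chromosomes attach, stood at 96.4, 99.96 and 103.2 against 7.46, 6.37 and 6.25 CPM (3.95 ± 0.07). The kinase Ttk also rose, so all 4 checkpoint genes did.

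All 9 kinetochore and centromere genes rose, by 3.86 to 5.72. Cenpf, a large protein of the outer kinetochore, stood at 199, 297 and 280 CPM in Igfbp2-high and 3.96, 5.71 and 5.48 CPM in Igfbp2-low cells (log2 change 5.72 ± 0.06). Spc24, a subunit of the NDC80 complex that grips microtubules, stood at 188, 193 and 201 against 5.35, 5.73 and 6.61 CPM (5.09 ± 0.07). Ndc80 and Nuf2 of the same complex rose by 5.30 ± 0.09 and 5.12 ± 0.07. Spc25, the partner subunit of Spc24 and no member of the list, differed from it between these classes. Its level was 404, 392 and 424 CPM in Igfbp2-high cells and 632, 365 and 354 CPM in Igfbp2-low cells, and these ranges overlapped. Within Igfbp2-high cells Spc25 stood at 447, 430 and 466 CPM in S and 210, 141 and 165 CPM in S-zero cells, with no overlap. Over all cells its S and S-zero values overlapped (445, 425 and 455 against 591, 350 and 338.5 CPM).

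The kinesin motors had the widest range, 2.86 to 5.58. Kif20a, a motor of the central spindle, stood at 51.7, 63.2 and 60.3 CPM in Igfbp2-high and 1.23, 1.45 and 1.11 CPM in Igfbp2-low cells (log2 change 5.57 ± 0.08). Kif22, a motor that binds chromosome arms, stood at 74.5, 84.7 and 81.8 against 9.50, 14.8 and 10.2 CPM, and its change of 2.86 ± 0.10 was the lowest of the 48. Kif23, which acts at the midzone, had the highest change of the motors (5.58 ± 0.08), and Kif4, Kif11, Kif20b and Kif2c also rose.

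Of the spindle assembly and midzone genes, Tpx2, which activates Aurora A on microtubules, stood at 124, 163 and 152 CPM in Igfbp2-high and 3.58, 4.66 and 3.82 CPM in Igfbp2-low cells (log2 change 5.23 ± 0.06). Prc1, which bundles the microtubules of the midzone, stood at 174, 242 and 211 against 4.43, 6.33 and 5.05 CPM (5.35 ± 0.06). Hmmr, a spindle-associated protein, had the highest change of the 48, 5.77 ± 0.09, from 1.40, 2.23 and 1.38 CPM to 70.5, 105.8 and 91.0 CPM. Ckap2 and Nusap1 rose with them.

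The condensin and chromosome genes changed by 2.89 to 5.36. Smc4, one of the ATPase arms of condensin, stood at 289, 325 and 326 CPM in Igfbp2-high and 23.0, 19.5 and 17.5 CPM in Igfbp2-low cells (log2 change 4.02 ± 0.09). Top2a, the topoisomerase that untangles sister chromatids, stood at 184, 275 and 221 against 4.34, 6.42 and 6.53 CPM (5.34 ± 0.09). Ncapd2, a non-ATPase subunit of condensin I, had the second lowest change of the 48, 2.89 ± 0.07, from 4.79, 4.90 and 6.07 CPM to 33.9, 38.1 and 41.1 CPM. Mki67, whose protein coats mitotic chromosomes and gives the Ki-67 stain, rose by 4.54 ± 0.06. In the last role, Lmnb1, a lamin of the nuclear envelope, stood at 159, 173 and 174 against 9.85, 10.4 and 10.1 CPM (4.10 ± 0.05). Fam64a, a regulator that rises at mitosis, stood at 133, 161 and 173 against 3.67, 4.27 and 3.88 CPM (5.34 ± 0.07).

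The classes also differed in depth and in other transcripts. Median UMIs per cell ranged over runs from 18735 to 21911 in Igfbp2-high and from 8522 to 10396 in Igfbp2-low cells. The 15 Müller glia markers summed to 9739 to 12730 CPM in Igfbp2-high and 32580 to 38970 CPM in Igfbp2-low cells, with none at 0. Sums of 6 astrocyte markers were 141 to 226 and 867 to 1214 CPM, of 10 rod markers 673 to 866 and 1666 to 1978 CPM, of 7 endothelial and pericyte markers 241 to 282 and 729 to 762.3 CPM, and of 12 microglia markers 42.7 to 52.8 and 34.9 to 60.6 CPM. Transcripts of red blood cells reached 102.6 CPM in the Igfbp2-low cells of run 1 and at most 1.63 CPM elsewhere in these classes. All 48 members still rose among cells of 8000 to 14000 UMIs (median 5.01), in cells with at least 5 Glul and Rlbp1 UMIs per 10000 (median 5.10) and without run 1 (median 5.11). The part of the other cell types in the result was not tested beyond this.

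**Figure D2:**
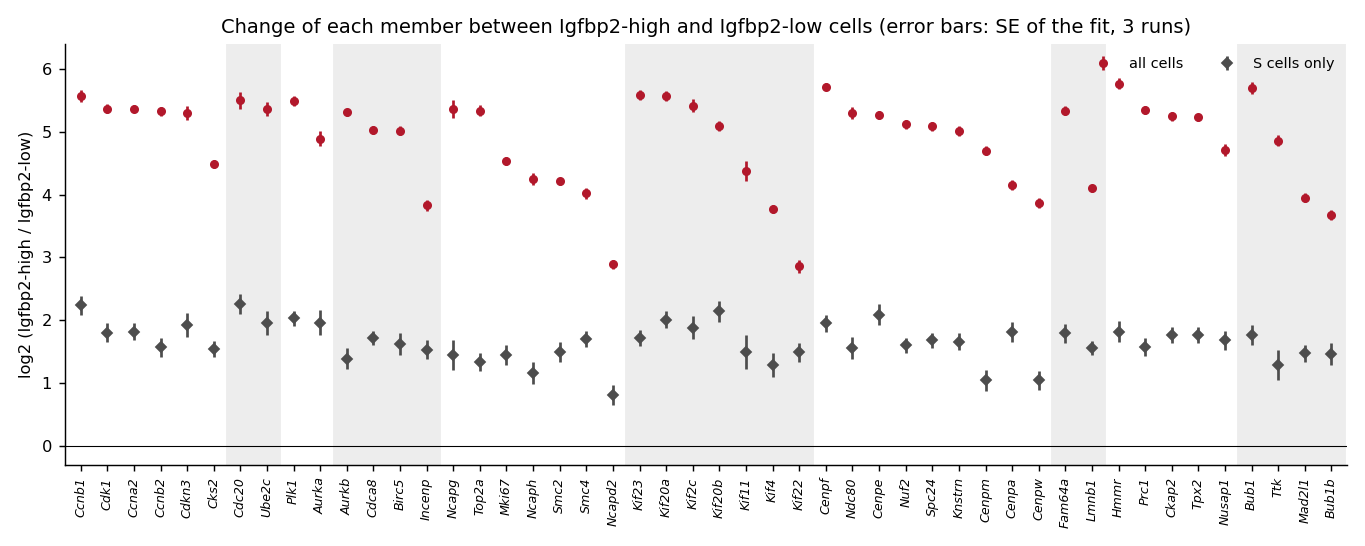
Log2 change of each of the 48 members (y axis) between Igfbp2-high and Igfbp2-low cells, in all cells (red) and among S cells only (grey), with the SE of the fit over 3 runs. Shading alternates between roles. The red points range from 2.86 for Kif22 to 5.77 for Hmmr, and the grey points from 0.81 for Ncapd2 to 2.26 for Cdc20.

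Member transcripts changed in steps with the Igfbp2 level of a cell. Their sum was 221 ± 17.9 CPM (SD, n = 3 runs) in cells with no Igfbp2 UMI, 438 ± 209 CPM in cells above 0 and under 1 Igfbp2 UMI per 10000, and 1365 ± 557 CPM from 1 to under 5. It was 5091 ± 801 CPM from 5 to under 10 and 7271 ± 758 CPM from 20 to under 40, and 6667 ± 852 CPM at 40 and above. Between the means of neighbouring steps the largest ratio lay at 5 Igfbp2 UMIs per 10000, and above it the SDs of neighbouring steps overlapped. Of the single runs, only run 1 had its largest ratio there (756 to 4167 CPM). In run 2 it lay at the limit of 1 (382 to 1489 CPM, then 5538 CPM above 5). In run 3 it lay between no Igfbp2 UMI and the next step (201 to 670 CPM), against 1850 to 5569 CPM at the limit of 5. The place of the largest step thus differed between runs. The share of cells with at least 5 member UMIs, counted after each cell was thinned to 3500 UMIs, was 0.608% with no Igfbp2 UMI, 10.3% from 1 to under 5, and 63.8% to 77.0% in the 4 steps from 5 upward. These levels are given as a description.

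**Figure D3:**
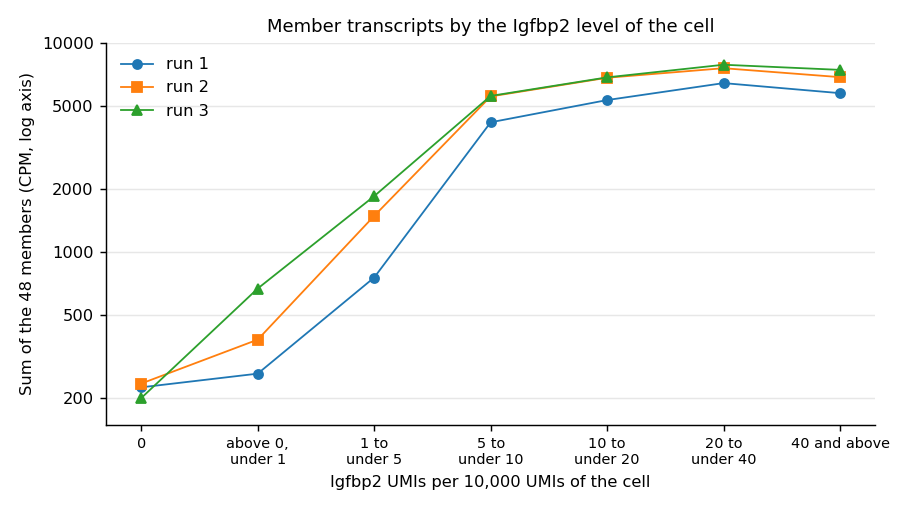
Sum of the 48 members (y axis, CPM on a log axis) by the number of Igfbp2 UMIs per 10000 UMIs of the cell (x axis), with 1 line per run. All 3 lines climb from the step with no Igfbp2 UMI to the step from 20 to under 40, and each is lower again at 40 and above.

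S cells were compared with S-zero cells to set the members against replication. A limit of 2 raw UMIs does not confine the class to cells in S phase. Its members summed to 7280 ± 607 CPM (SD, n = 3), above the 1537 and 3369 CPM of the earliest phase bins given below. The class may hold cells in G2 and mitosis, and its phases were not tested. All 48 rose in S cells, by a median log2 of 5.01 (range 3.04 for Kif22 to 5.64 for Top2a and Aurkb, largest adjusted p 9.46e-08 by edgeR), where 39.9% of 14685 genes tested rose. Ncapd2 (3.18 ± 0.06) and Bub1b (3.82 ± 0.08) were next lowest, and Kif23 (5.54 ± 0.09) and Hmmr (5.54 ± 0.07) were next highest. Of the S cells, 89.1% were Igfbp2-high and 4.87% were Igfbp2-low, so this comparison and the preceding one share most of their cells. Median depth was 20199 to 23673 UMIs in S and 8466.5 to 10038.5 UMIs in S-zero cells. With the S class set after thinning every cell to 3500 UMIs, all 48 again rose, by a median of 2.03.

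Crossing both limits gave 4 classes, and the members ranked them alike in every run. Their sum was 6820, 7799 and 8090 CPM in the 4888 Igfbp2-high S cells and 2045, 2802 and 2701 CPM in the 267 Igfbp2-low S cells. It was 844, 1156 and 1553 CPM in the 1100 Igfbp2-high S-zero cells and 174, 189 and 154 CPM in the 13364 Igfbp2-low S-zero cells. At 3500 UMIs per cell, 87.9% ± 3.09 (SD, n = 3) of Igfbp2-high S cells held at least 5 member UMIs, compared with 31.4% ± 11.4 of Igfbp2-low S cells, 16.7% ± 3.49 of Igfbp2-high S-zero cells and 0.180% ± 0.00665 of Igfbp2-low S-zero cells. Median depths in the last class were 8390 to 10269 UMIs. Whether its few member UMIs came from the cells themselves was not tested. No member UMI was seen at that depth in 2.20%, 28.2%, 45.9% and 56.0% of the cells of these classes in the same order. Without thinning these shares were 0.301%, 6.78%, 12.1% and 23.8%, so most cells with no member UMI after thinning held some at their full depth.

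**Figure D4:**
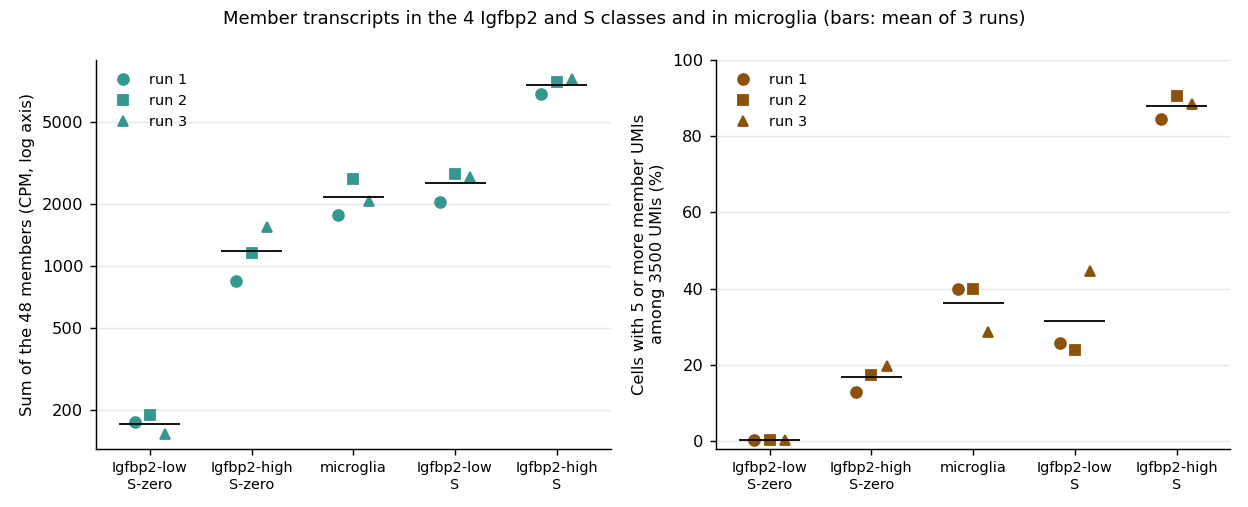
Sum of the 48 members in CPM (left, log axis) and share of cells with at least 5 member UMIs after thinning to 3500 UMIs (right, %), for the 4 classes and for microglia, with 1 symbol per run and a bar at the mean. Igfbp2-high S cells lie at the top and Igfbp2-low S-zero cells at the bottom of both panels, and the other 2 classes and the microglia lie between them.

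Within Igfbp2-high cells, all 48 members rose in S against S-zero cells. The median log2 change was 2.81 (range 2.16 to 3.26, largest adjusted p 1.78e-08), and 26.4% of 14151 genes tested rose. Aurkb (3.26 ± 0.16), Ccna2 (3.14 ± 0.13) and Plk1 (3.12 ± 0.10) rose most, while Cenpw (2.16 ± 0.13) and Cenpa (2.20 ± 0.13), of the inner kinetochore and the centromeric nucleosome, and Cdkn3 (2.26 ± 0.14) rose least. With the S class set at 3500 UMIs, which moved the S-zero class from 1100 to 2864 cells, 31 of the 48 rose and the median fell to 0.27. Among cells of 8000 to 14000 UMIs all 48 rose by a median of 2.28, so the size of this difference depended on how S cells were set.

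Within Igfbp2-low cells, all 48 also rose in S cells, by a median log2 of 4.25 (range 1.62 to 5.57, largest adjusted p 6.22e-06), where 16.5% of genes tested rose. Top2a rose by 5.57 ± 0.20, from 1.90, 2.68 and 2.20 CPM in S-zero to 82.1, 124.5 and 126.9 CPM in S cells. Bub1 (5.43 ± 0.30), Aurkb (5.25 ± 0.27) and Hmmr (5.25 ± 0.28) followed. Kif22 (1.62 ± 0.18), Ncapd2 (2.45 ± 0.20) and Bub1b (2.59 ± 0.25) rose least, the same 3 genes as over all cells. Among cells of 8000 to 14000 UMIs, with 118 Igfbp2-low S cells, 40 of the 48 rose.

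The difference between S and S-zero cells was itself compared between Igfbp2-high and Igfbp2-low cells with an interaction term. It was smaller in Igfbp2-high cells for 34 members, larger for 1 and did not pass for 13, with a median of -1.40, where 5.51% of all genes tested were smaller and 5.23% larger. Bub1 had the lowest value, -2.78 ± 0.31 (adjusted p 3.32e-05), and it stood at 6.56, 8.50 and 10.0 CPM in Igfbp2-high S-zero but 0.193, 0.423 and 0.420 CPM in Igfbp2-low S-zero cells. Those Igfbp2-low values rest on 7, 21 and 18 UMIs, and Igfbp2-low S cells held 10, 34 and 22 Bub1 UMIs. Top2a (-2.51 ± 0.24) and Ccnb2 (-2.50 ± 0.24) came next, and Ccnb1 (-1.21) and Nusap1 (-0.79), a microtubule binder, were the mildest that passed. Kif22 alone went the other way, at 1.29 ± 0.22 (adjusted p 0.0011), but with the S class set at 3500 UMIs its value turned to -1.14 ± 0.35 and no member was larger. It stood at 87.5, 95.2 and 93.6 CPM in Igfbp2-high S, 11.9, 13.7 and 11.6 CPM in Igfbp2-high S-zero, 23.3, 47.8 and 31.4 CPM in Igfbp2-low S and 9.58, 13.9 and 9.48 CPM in Igfbp2-low S-zero cells. The 13 that did not pass ranged from -0.89 ± 0.31 in Ncaph (adjusted p 0.074) to 0.32 ± 0.24 in Ncapd2 (adjusted p 0.435). The others were Smc2 and Smc4 of condensin, the kinesins Kif4, Kif11 and Kif20b, the checkpoint genes Bub1b and Mad2l1, and Aurka, Cenpa, Incenp and Lmnb1. Among cells of 8000 to 14000 UMIs 1 member was smaller and 1 larger, with a median of -0.50, and Ccnb1 (0.16 ± 0.58) and Nusap1 (0.24 ± 0.65) changed sign without passing.

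S cells that were Igfbp2-high carried more member transcripts than S cells that were Igfbp2-low. In this contrast, added after the levels were seen, all 48 members were higher in Igfbp2-high S cells, by a median log2 of 1.67 (range 0.81 to 2.26, largest adjusted p 0.000536), and 23.2% of genes tested were higher. Cdc20 differed most, 250, 273 and 312 CPM against 44.6, 91.7 and 47.1 CPM (2.26 ± 0.16). Ccnb1 (2.24 ± 0.15) and Kif20b (2.14 ± 0.17), a kinesin of late mitosis, came next. Ncapd2 differed least, 40.6, 42.8 and 45.7 against 19.3, 24.9 and 32.7 CPM (0.81 ± 0.16), followed by Cenpm and Cenpw (1.04 ± 0.16 and 1.04 ± 0.15), both of the inner kinetochore. The 4 replication genes that set the class summed to 340 to 406 CPM in Igfbp2-high and 271 to 314 CPM in Igfbp2-low S cells. Median depths were 20776 to 24211 and 12642 to 13747 UMIs. With at least 4 replication UMIs, 40 of the 48 were higher by a median of 1.00, and among cells of 8000 to 14000 UMIs all 48 were, by a median of 2.58. The Müller glia markers summed to 8772 to 10880 CPM in Igfbp2-high S and 13030 to 19650 CPM in Igfbp2-low S cells, and their part was not tested. Cell cycle phases were not compared between these classes of S cells.

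The order of the members from S to mitosis was read along 5 phase bins set by genes outside the list. Most members are themselves transcribed late in the cycle, so a rise along bins ordered by G2 and M genes was largely built in. The bins serve to order the members among each other. Each cell was thinned to 3500 UMIs, and its share of G2 and M transcripts among early (replication), G2 and M transcripts placed it in bin 1 (almost only replication genes) to bin 4 (mostly G2) or bin 5 (mostly M). In the bins as first set, bin 5 held 12299 cells with median depths of 9219 to 10753 UMIs. Phase genes such as Tubb4b (541 CPM), Arl6ip1 (467 CPM) and Pttg1 (95.3 CPM) were read in Igfbp2-low S-zero cells. In those bins 0 members rose from bin 1 to bin 2 by edgeR (27 at an unadjusted p under 0.05, 5 by DESeq2, 0.0% of all genes), 46 rose from bin 2 to 3 (7.35% of all genes), 26 from 3 to 4 (1.21%), and all 48 fell from 4 to 5 (15.6%). The 9 phase genes at or above 20 CPM in Igfbp2-low S-zero cells were then left out. This was chosen after the sizes were seen, and the values below are of those revised bins.

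The revised bins held 436, 1228, 2405, 846 and 765 cells, of which 83.03% to 92.1% were Igfbp2-high. Phase genes were left out by their level in Igfbp2-low S-zero cells, so this share is not independent of the Igfbp2 classes. The 48 members summed to 1537 ± 96.1 CPM in bin 1 (SD, n = 3), 3369 ± 93.9 CPM in bin 2, 8205 ± 300.4 CPM in bin 3, 11260 ± 574 CPM in bin 4 and 11130 ± 672 CPM in bin 5. The first 4 bins did not overlap between runs, and bins 4 and 5 did. All 48 rose from bin 1 to 2 (median log2 1.30, where 2.2% of 11946 genes tested rose) and from bin 2 to 3 (median 1.25, 11.0%), and 39 rose from bin 3 to 4 (median 0.39, 4.67%), a count that fell to 10 without the run as a block. From bin 4 to 5 no member rose by edgeR (6 at an unadjusted p under 0.05, 0 by DESeq2, 0.0502% of all genes), and Top2a fell by 0.22 ± 0.04 (adjusted p 0.0304, 0.109% of all genes). That call was lost without run 1, without run 2 and without the run block.

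All 48 members had their highest level in bin 4 or 5 in every run. This follows largely from how the bins were ordered and is no independent result. In 11 it was bin 4 in all 3 runs (Spc24, Ncapd2, Ncaph, Ncapg, Aurkb, Smc2, Top2a, Cdk1, Ndc80, Kif11 and Bub1b), and in 9 it was bin 5 (Cenpm, Bub1, Tpx2, Knstrn, Kif20a, Kif2c, Cdkn3, Cenpa and Cdc20). The other 28 differed between runs. What set the members apart was how early they appeared, so they were grouped by their level in bin 2 as a percentage of their own top bin, with limits of 40% and 20% that were set after the values were seen. These groups are a description and carry no test.

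The early group held 16 members at 42.2% to 64.5% of their top in bin 2. It took in 6 of the 7 condensin and chromosome genes (Smc2, Smc4, Ncapd2, Ncapg, Ncaph and Top2a), the kinetochore genes Cenpw, Cenpm, Spc24 and Ndc80, and the passenger genes Aurkb and Incenp. Cdk1, the checkpoint genes Mad2l1 and Ttk, and Lmnb1 completed it. Cdk1 stood at 142, 132 and 98.1 CPM in bin 1 of runs 1 to 3, at 283, 280 and 243 CPM in bin 2 and at 577, 554 and 552 CPM in bin 4. Top2a stood at 81.0, 110.7 and 75.0 CPM in bin 1, at 145, 202 and 160 CPM in bin 2 and at 308, 423 and 316 CPM in bin 4. For both genes each bin was above the one before it in every run up to bin 4.

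The middle group held 16 members at 20.5% to 39.2% in bin 2. It comprised Ccna2 and Cks2 of CDK1's partners, Birc5 and Cdca8 of the passenger complex, Bub1 and Bub1b of the checkpoint, Nuf2 and Knstrn of the kinetochore, 4 kinesins (Kif4, Kif11, Kif20b and Kif22), the spindle genes Tpx2 and Prc1, Mki67 and Fam64a. Mki67 stood at 22.3, 31.4 and 33.0 CPM in bin 1, 58.0, 74.1 and 69.7 CPM in bin 2 and 160, 222 and 192 CPM in bin 4. Of the NDC80 complex, Ndc80 (42.8%) and Nuf2 (38.0%) lay on either side of the 40% limit but close to each other, and Spc24 was higher at 63.5%.

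The late group held 16 members at 8.35% to 19.5% in bin 2. Both partners of the anaphase-promoting complex (Cdc20 and Ube2c) and both spindle pole kinases (Aurka and Plk1) were in it, as were both B cyclins with Cdkn3, the centromere genes Cenpa, Cenpe and Cenpf, the kinesins Kif20a, Kif23 and Kif2c, and Nusap1, Hmmr and Ckap2. Cdc20 was last of the 48. It stood at 20.5, 7.05 and 9.37 CPM in bin 1 and 54.2, 37.1 and 41.1 CPM in bin 2, then at 289, 282 and 285 CPM in bin 3 and 517, 519 and 555 CPM in bin 5. Cenpa, the histone variant that marks centromeres, was next, at 6.50 ± 3.55 CPM in bin 1, 39.7 ± 7.37 CPM in bin 2 and 407 ± 34.3 CPM in bin 5. The step from bin 2 to 3 was largest in Cdc20 (log2 2.67 ± 0.09) and Cenpa (2.44 ± 0.08) and smallest in Cenpw (0.35 ± 0.05) and Cenpm (0.46 ± 0.05).

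**Figure D5:**
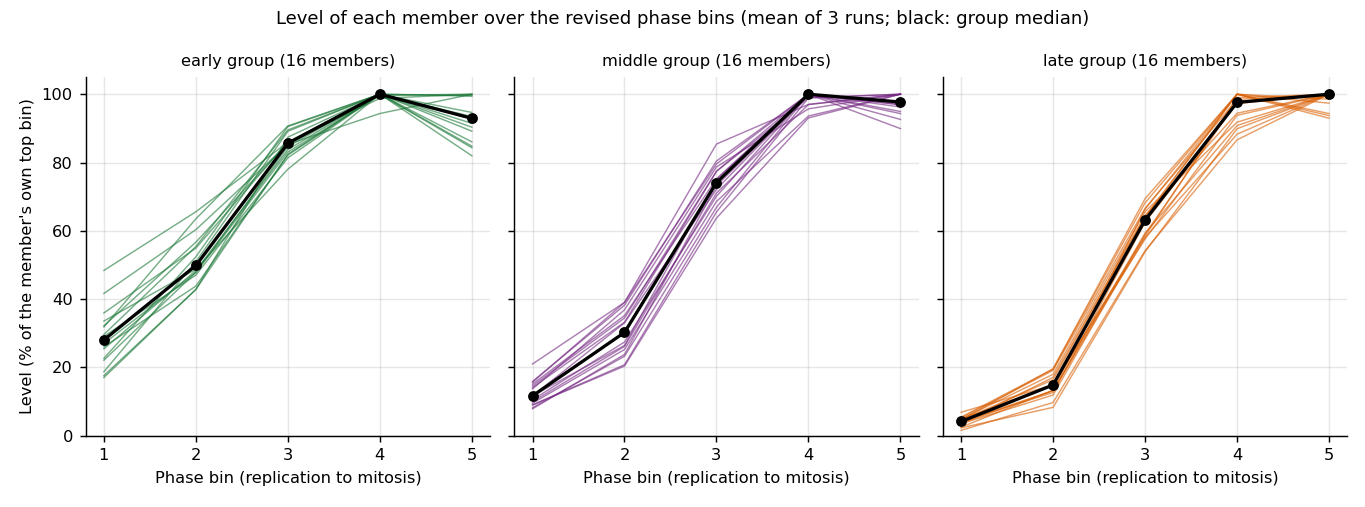
Level of each member in the 5 revised phase bins (x axis) as a percentage of the member's own top bin (y axis, mean of 3 runs), in the early, middle and late groups, with the group median in black. In bin 2 the medians are 49.9%, 30.3% and 14.9% of the top, and in bin 3 they are 85.6%, 74.1% and 63.2%.

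Both promoter motifs were present in 6 of the 11 promoter windows of early members (54.5%), 4 of the 14 of middle members (28.6%) and 5 of the 15 of late members (33.3%). These shares are given with no test.

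Microglia also held member transcripts. Their sum was 1777, 2655 and 2061 CPM in the 40, 15 and 7 cells of runs 1 to 3, and all 3 values lay between those of Igfbp2-low and Igfbp2-high cells. After thinning to 3500 UMIs, 36.2% ± 6.60 (SD, n = 3) of these cells held at least 5 member UMIs. Against Igfbp2-low cells 47 members rose, by a median log2 of 3.28 over the 48, where 14.9% of 13480 genes tested rose. Ccnb2 (4.83 ± 0.41), Hmmr (4.27 ± 0.60) and Cdkn3 (4.23 ± 0.56) rose most, and Kif22 (1.17 ± 0.45), Cenpf (1.92 ± 0.58) and Prc1 (1.94 ± 0.56) least. Ncapd2, with 13, 0 and 0 UMIs, did not pass (1.02 ± 0.67, adjusted p 0.233). A count of 0 allows up to 9.69 CPM in run 2 and 50.3 CPM in run 3, counting error only.

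Against Igfbp2-high cells, 40 members were lower in microglia, by a median log2 of -1.38 over the 48, where 14.6% of 13177 genes tested were lower. None was higher by edgeR (12.7% of all genes were), none at an unadjusted p under 0.05 and none by DESeq2. Cenpf (-3.53 ± 0.33), Prc1 (-3.17 ± 0.33) and Ckap2 (-2.67 ± 0.39) were lowest, and of those that passed Mki67 (-0.89 ± 0.29), Lmnb1 (-0.95 ± 0.26) and Kif20b (-0.98 ± 0.36) differed least. Cenpf stood at 19.5, 19.4 and 0 CPM in microglia and Prc1 at 15.3, 32.3 and 0 CPM, all under every Igfbp2-high run. The 8 that did not pass were Ccnb2, Cdkn3, Incenp, Ttk, Ndc80, Cenpa, Kif2c and Ncaph. Ccnb2 stood at 61.2, 84.0 and 184 CPM and Cenpa at 55.6, 145.3 and 234.5 CPM, where run 3 rests on 11 and 14 UMIs.

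The microglia class was mixed. Its 12 microglia markers summed to 14540, 9288 and 15040 CPM, but the 15 Müller glia markers also summed to 15650, 8758 and 9382 CPM, and in single cells this sum ran from 1125 to 50270 CPM. In the 27 cells under 10000 CPM of Müller markers, 46 members were higher than in Igfbp2-low cells (median 3.64) and 23 were lower than in Igfbp2-high cells (median -0.96). Shares over all genes were not computed for this and the next settings. Over the whole class without run 1 the counts were 34 higher and 21 lower, and among cells of 8000 to 14000 UMIs, with 13 microglia, 19 higher of the 42 members tested there (median 2.84) and 9 lower of 48. Median depth in the class ran from 6397 to 19700 UMIs over runs, and the part of Müller glia transcripts and of doublets was not tested.

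Other genes of the same machinery, 83 in 4 lists, had smaller median changes than the members. Members and lists were chosen with earlier results of these data known, so this difference is a description and carries no test. Of all genes tested, 39.9% rose in Igfbp2-high cells and 39.9% in S cells. Of 23 other kinetochore and centromere genes all 23 rose in Igfbp2-high cells, by a median log2 of 2.94, and all 23 rose in S cells (3.06). Of 14 other condensin and cohesin genes 12 rose and none fell (median 0.93). Of 24 other spindle and microtubule genes 18 rose and 5 fell (1.08), and of 22 other genes of mitotic entry and exit 18 rose and 2 fell (0.84). The 2 most expressed of each list in S cells were Zwint (0.86 ± 0.07) and Bub3 (1.62 ± 0.07) of the kinetochore, Rad21 (1.40 ± 0.06) of cohesin and Ncaph2 (1.18 ± 0.05) of condensin II, the tubulins Tuba1b (2.00 ± 0.07) and Tubb5 (0.86 ± 0.06), and Ube2s (2.56 ± 0.06), a partner of the anaphase-promoting complex, with the phosphatase inhibitor Arpp19 (0.67 ± 0.05). Each of these 8 rises was smaller than the lowest of the 48 members, 2.86 for Kif22. The 8 were picked by level, not by change. The 23 other kinetochore and centromere genes had a median of 2.94, above Kif22. The changes of members and other genes therefore overlapped. Among S cells, Igfbp2-high against Igfbp2-low, Arpp19 did not pass (0.23 ± 0.10, adjusted p 0.0636), and the 4 lists had medians of 0.90, 0.42, 0.53 and 0.61, where the 48 members had 1.67.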

How the data were processed

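The deposited count table holds whole-number UMI counts per gene and cell, produced by the authors with Cell Ranger on mm10, per the submitters' processing notes. The Cell Ranger version is not given in the sources used here. A deposited table of natural log values, made with Seurat 2.3.4 per the same notes, held 13511 of the cells (54.7%) and equalled ln(1 + 10000 × count / total) of the counts to within 5.00e-07. It served only to mark the authors' cells for an alternative. A cell needed 500 genes, and mitochondrial UMIs of no more than 20%, which removed 23. Counts were summed per class and run. After filterByExpr and TMM scaling, the quasi-likelihood test of edgeR 4.0.16 (R 4.3.3) was run with the run as a block, since both classes of a run come from the same library. Genes that set the classes were dropped after scaling, the threshold was an adjusted p of 0.05, and SE is the absolute log2 change over the root of F. CPM is computed on all genes of a class. Phase bins were limited at late shares of 0.1, 0.3 and 0.6, with an M share of 0.5 between bins 4 and 5, in cells of at least 5 phase UMIs. Alternatives were DESeq2 1.42.0, RLE scaling, scaling by UMIs per cell, no filter, no run block, each run left out, other cell limits and thinned S classes. Shares over all genes were computed for the main fits only, so member counts under alternatives stand without them. Values are named for the 2 most expressed members of a role in S cells, for those that did not pass, and for the 3 largest and 3 smallest changes. The phase order and microglia examples were chosen after values were seen. Changes of Ndc80, Nuf2, Kif23 and Mki67 between the Igfbp2 classes, and of Hmmr in the S contrasts, were given outside this rule. The fit was tested on simulated data. The members, lists, rules and tests were chosen with earlier results of these data known. Python 3.11.15 did the sums and figures. The limits given for counts of 0 cover counting error only.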

Additional observations from a re-analysis of the deposited data

Results flagged for a closer look

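The rise of the members in S cells differed between Igfbp2-high and Igfbp2-low cells by a test of the difference itself (edgeR interaction term, adjusted over all genes). It was smaller in Igfbp2-high cells for 34 members and larger for 1. On the log2 scale the values, Igfbp2-high minus Igfbp2-low, were -2.78 for Bub1, -2.51 for Top2a, -2.50 for Ccnb2, -1.21 for Ccnb1, -0.79 for Nusap1 and 1.29 for Kif22. The Bub1 value rests on 7, 21 and 18 UMIs in Igfbp2-low S-zero cells of runs 1 to 3. With the S class set at 3500 UMIs, 47 members were smaller and Kif22 turned to -1.14. Among cells of 8000 to 14000 UMIs 1 member was smaller, and Ccnb1 (0.16) and Nusap1 (0.24) changed sign. Groups of 3 runs are too small for a test of single outlying runs.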

How the results depend on the processing

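All 48 members stayed higher in Igfbp2-high than in Igfbp2-low cells, and in S than in S-zero cells, under every alternative run, with 48 in each left-out run. So they did in S cells within Igfbp2-high cells, except with the S class at 3500 UMIs (31). In S cells within Igfbp2-low cells 40 to 48 rose. Members with a smaller S difference in Igfbp2-high cells numbered 28 to 33 with 1 run left out and 1 among cells of 8000 to 14000 UMIs, and the larger one was lost (0) with the S class at 3500 UMIs. Members higher in microglia than in Igfbp2-low cells numbered 34 to 46 with 1 run left out and 19 of the 42 tested among cells of 8000 to 14000 UMIs, where the median log2 change was 2.84. Members lower in microglia than in Igfbp2-high cells numbered 21 to 41, 9 in that depth window and 23 in C1q cells low in Müller markers, while none was higher. The authors' cells held no microglia, so that alternative gave no value there.

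In the planned bins, members rising from bin 1 to 2 numbered 0 to 3 with 1 run left out, 10 with no filter, 5 with DESeq2, 1 in the authors' cells, 3 with at least 8 phase UMIs, 4 in Igfbp2-high cells and 48 with the revised lists. From bin 2 to 3 they numbered 21 of the 47 tested among cells of 8000 to 14000 UMIs. From bin 3 to 4 they numbered 3 to 31 with 1 run left out, 17 scaled by UMIs per cell, 0 with no run block (no pairing of classes by run) and 0 in the depth window. From bin 4 to 5 there were 5 in Igfbp2-high cells. In the revised bins, 10 rose from bin 3 to 4 with no run block, and from bin 4 to 5 there was 1 with no filter. Falls from bin 4 to 5 numbered 0 to 1 with 1 run left out, 7 scaled by UMIs per cell, 3 with no filter, 0 with no run block, 0 in the authors' cells and 4 among cells of 8000 to 25000 UMIs. The revised bins, the contrast within S cells and the C1q cells low in Müller markers were added after seeing the data.

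Of 936 values of named members under alternatives, 877 kept their side of the threshold, 43 lost their call and 12 gained one. A member that passed in neither fit counted among the 877 whatever its direction. Another 4, all of which passed in the main fit, changed direction. These 4 were Ccnb1 (0.16) and Nusap1 (0.24) in the interaction among cells of 8000 to 14000 UMIs, Kif22 (-1.14) in it with the S class at 3500 UMIs, and Kif22 in microglia against Igfbp2-low cells in the depth window (-0.93). The cause was not tested. The run block changed no other count by over 1.5 times. Depth limits the microglia of run 3 most, where 59689 UMIs came from 7 cells.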
